A study of Mus musculus with 4 samples.

Results

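H3K27ac peaks were examined at 10 mouse genes that encode AP-1 and stress-response transcription factors, of 21887 protein-coding genes in the GRCm38 gene table. The genes were *Jun*, *Junb*, *Jund*, *Fos*, *Fosb*, *Fosl1*, *Fosl2*, *Atf3*, *Batf*, and *Egr1*, taken by name. For each gene, every peak that touched the gene body or the 10 kb on either side was collected. Peaks within 1 kb of an end of the gene were called gene-end peaks, and the others distal peaks. A peak counted as shared if at least 1 bp of it was also covered by a peak of the other library, and overlapping peaks were merged into regions. Where gene-end and distal peaks had merged, the region was counted at the gene end.

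The study measured H3K27ac, a histone acetylation that marks promoters and enhancers in use, by ChIP-Seq in isolated mouse liver sinusoidal endothelial cells (LSECs), to find potential regulatory elements. There were 2 H3K27ac libraries of a single group, called replicates 2 and 3 after their numbers, and 2 input libraries of the same numbers, which were not analysed here. In the study's methods, LSECs were sorted from digested livers with beads against CD146, a surface protein of endothelial cells. The isolation described there goes on to several hours of culture on collagen and names several engineered mouse lines. Whether the cells for ChIP-Seq were cultured, and from which line they came, is not stated. The methods describe a tagmentation-assisted form of ChIP-Seq, whereas the labels describe sonication and a library kit, so how the libraries were made is uncertain. The labels give no genotype, strain, age, or treatment of the mice, and do not say whether the libraries came from separate animals. No other cell type and no LSECs left in the liver were measured in these libraries, so every value below describes the isolated cells.

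AP-1 is a dimer of basic leucine zipper proteins that binds a short palindrome in promoters and enhancers. JUN proteins can pair with each other or with FOS proteins, while FOS proteins need a JUN partner, and ATF and BATF proteins join the same network. Many of these genes, and *Egr1*, which encodes a zinc finger factor, are immediate early genes. They are transcribed within minutes of a growth factor, cytokine, or mechanical signal through MAP kinases and serum response factor, without new protein synthesis. In endothelial cells they are known to respond to shear stress and to inflammatory cytokines.

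The list of replicate 2 held 26975 peaks and that of replicate 3 held 64498, 2.39 times as many. Fold enrichment, the ratio of a peak's signal to its background from the authors' peak caller, had a median of 9.76 in replicate 2 and 8.89 in replicate 3. The top of the scale differed more, with 95th percentiles of 31.1 and 64.9. Fold enrichments were therefore read within a list, as the percentile of a peak among all peaks of that list. Neither list states how many reads stood behind it, and sequencing depth is therefore unknown.

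The lists were checked against markers of the labelled cell type. Of 16 LSEC and endothelial markers, 12 had a shared gene-end peak, against 43.4% of all 21887 protein-coding genes. All 16 had a gene-end peak in replicate 3, against 53.9%. The strongest in replicate 3 were *Kdr*, the main VEGF receptor (22.4-fold in replicate 2 and 60.3-fold in replicate 3), and *Ehd3*, an endocytic protein (16.2-fold and 47.9-fold). Most of these markers were weaker, with a median percentile of the strongest gene-end peak within its list of 59.1 in replicate 2 and 67.1 in replicate 3, below the medians of 75.0 and 87.6 over all protein-coding genes with such a peak. The 4 markers with a gene-end peak in replicate 3 alone were *Stab2*, *Tek*, *Clec4g*, and *Mrc1*, named after their values were seen. None of 10 hepatocyte markers had a shared gene-end peak, and *Alb*, *Ttr*, and *Serpina1a* had no gene-end peak in either library, while *Apob* and *Apoa1* had 11.4-fold peaks in replicate 3 alone. None of 9 hepatic stellate cell markers had a shared gene-end peak, with no gene-end peak in either library at *Pdgfrb*, *Pdgfra*, and *Lrat* and a 12.0-fold gene-end peak in replicate 3 alone at *Col1a1*. Of 8 Kupffer cell and macrophage markers, 1 had a shared gene-end peak, *Cd68* (9.37-fold and 18.4-fold), and *Clec4f*, *Cd5l*, and *Vsig4* had no gene-end peak. None of 5 cholangiocyte markers had a shared gene-end peak, with no gene-end peak at *Krt19*, *Krt7*, and *Sox9* and 1 of 5.86-fold in replicate 3 at *Epcam*. Of 8 lymphocyte markers, *Cd79a* had a shared gene-end peak (10.2-fold and 13.3-fold), *Cd3d* a 5.54-fold gene-end peak in replicate 3 alone, and *Cd3e* and *Ms4a1* no gene-end peak. Shared distal regions lay in the windows of all 16 LSEC markers, 1 to 10 each, against 39% of all protein-coding genes. Of the other markers, 2 of the 10 hepatocyte, 1 of the 9 stellate cell, and 2 of the 8 Kupffer cell and macrophage markers had any. The same held for 0 of the 5 cholangiocyte and 3 of the 8 lymphocyte markers, and no marker of these other lists had more than 2.

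Of the 10 AP-1 and stress-response factor genes, 9 had a gene-end peak of both libraries, against 43.4% of all 21887 protein-coding genes. The same 9 had a gene-end peak in replicate 2, where the share of all protein-coding genes was also 43.4%, and in replicate 3, where it was 53.9%. The exception was *Batf*, which had no gene-end peak in either library. A distal region with a peak of both libraries lay in the window of 9 of the 10 genes, against 39% of all protein-coding genes, and here the exception was *Egr1*. In all, the 10 windows held 49 peaks of replicate 2 and 74 of replicate 3. Each of the 49 overlapped a replicate 3 peak, as nearly all replicate 2 peaks at protein-coding genes did. With a reciprocal overlap of at least 50%, shared gene-end peaks were found at 6 genes, against 22.0% of all protein-coding genes, and *Junb*, *Fosl1*, and *Egr1* no longer had one.

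**Figure D1:**
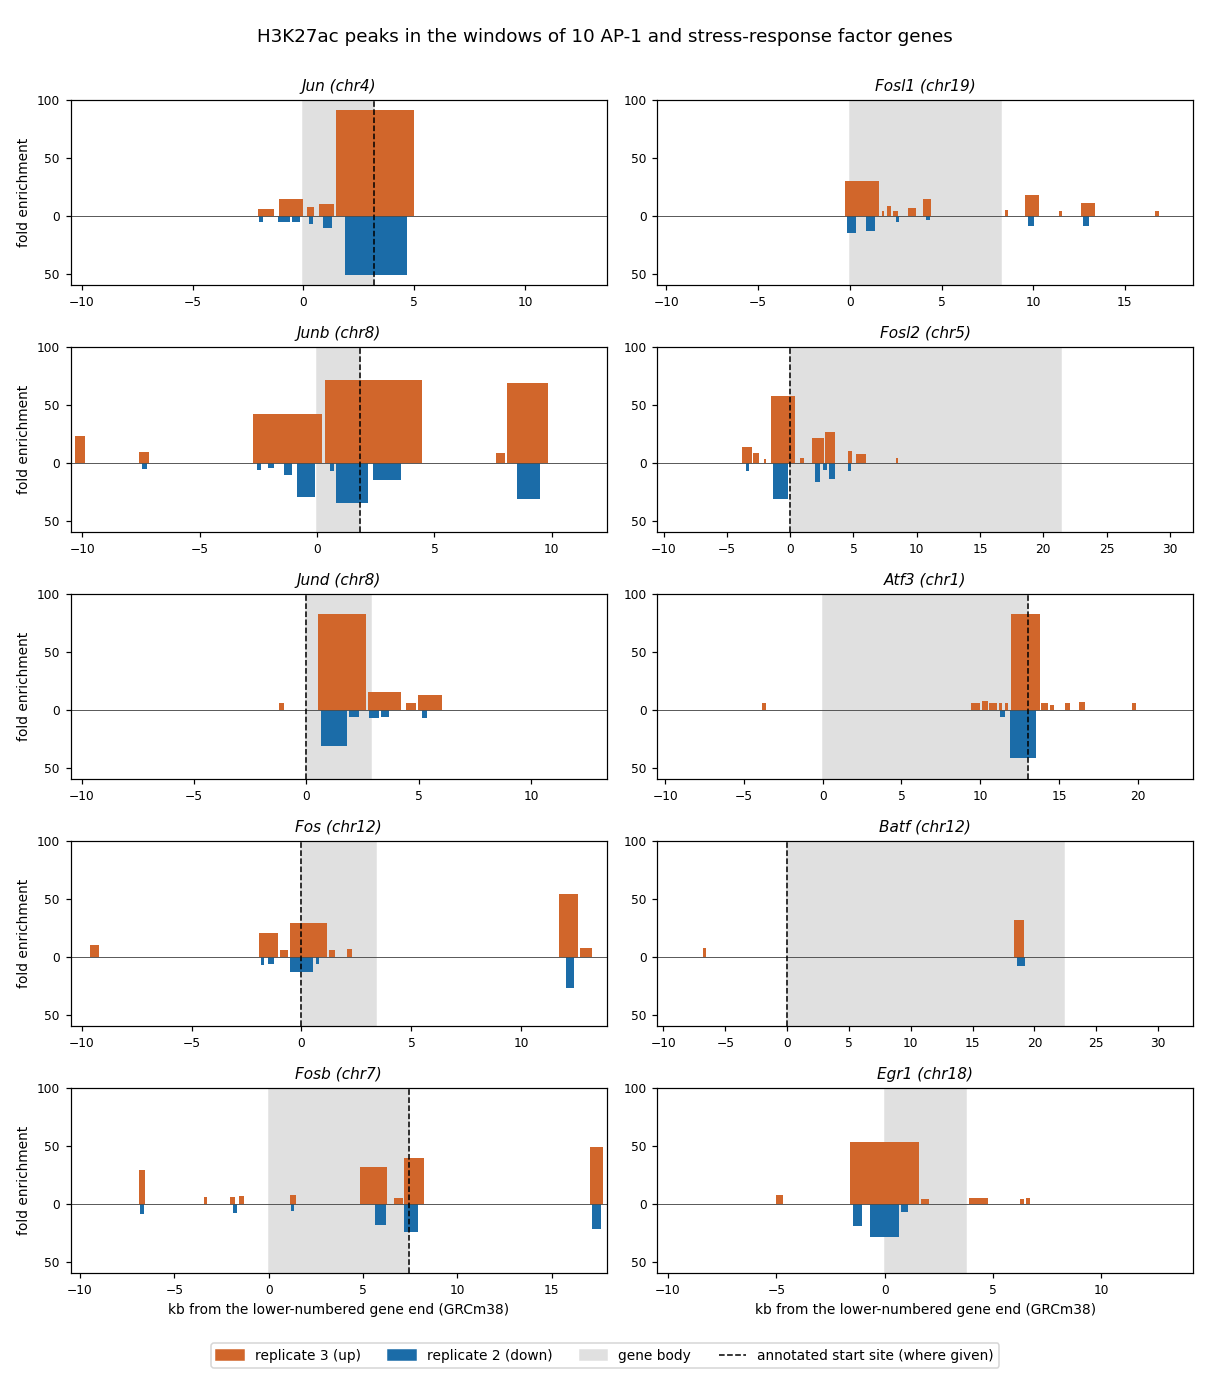
H3K27ac peaks in the windows of the 10 genes, as fold enrichment (vertical axis) against position in kb from the lower-numbered gene end in GRCm38 (horizontal axis), with replicate 3 drawn upwards in orange and replicate 2 downwards in blue. Each bar is 1 peak drawn over its full width, grey marks the gene body, and the dashed line is the annotated start site where the promoter table gives it. The tallest bar is the 91.0-fold replicate 3 peak over the *Jun* start site, and *Batf* has a single shared region, inside its gene body.

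The strongest gene-end peaks of the 9 genes were high in their lists. Their median percentile was 95.0 in replicate 2 and 93.5 in replicate 3, where the median over all protein-coding genes with a gene-end peak was 75.0 and 87.6. Their median fold enrichment was 31.1 against 16.3 in replicate 2, and 57.6 against 38.7 in replicate 3. In each library, 7 of the 9 genes lay above that median, and *Fosl1* and *Fos* lay below it. Among protein-coding genes with a gene-end peak, 3 of the 9 were in the top 10% in replicate 2, and 0 in replicate 3. Of the 36 pairs that the 9 genes form, 34 had the same order by fold enrichment in both libraries. The pairs that changed order were *Jund* with *Junb* and *Jund* with *Fosl2*, so these neighbours were not told apart. By −log10 p-value, the pairs that changed order were *Jund* with *Junb*, *Junb* with *Fosl2*, and *Fos* with *Fosb*, so the order of neighbours also depends on the measure. Replicate 3 values were 1.60 times (*Fosb*) to 2.65 times (*Jund*) those of replicate 2. The medians over all protein-coding genes with such a peak, 16.3 and 38.7, also differed, so these ratios were not read as differences in acetylation. When replicate 3 was limited to as many of its strongest peaks as replicate 2 holds, the median percentile was 84.4, against 76.1 over all protein-coding genes with a gene-end peak.

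**Figure D2:**
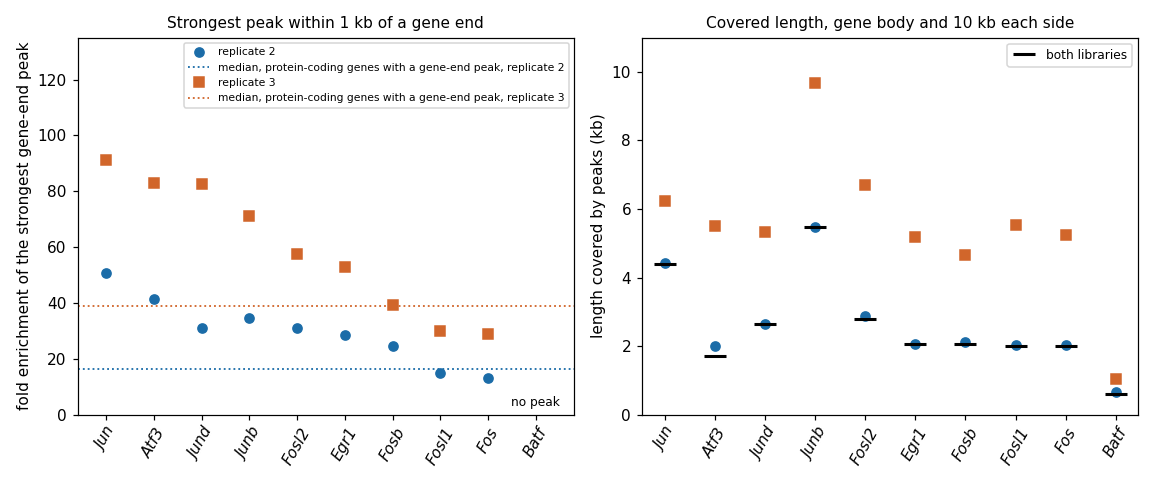
Left, fold enrichment of the strongest peak within 1 kb of a gene end for each of the 10 genes in replicates 2 (blue circles) and 3 (orange squares), with dotted lines at the median of all protein-coding genes with such a peak (16.3 and 38.7). Right, the length in kb covered by peaks in the gene body and 10 kb each side, in each library and in both (black bars). *Jun* has the highest fold enrichment in both libraries, *Junb* the longest covered length, and *Batf* no gene-end peak.

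Among the JUN genes, *Jun*, which encodes the c-Jun subunit and lies on the minus strand of chromosome 4 (95049036 to 95052222), had the strongest gene-end peak of the 10 genes in both libraries. It reached 50.8-fold in replicate 2, at the 99.8th percentile of all peaks, and 91.0-fold in replicate 3, at the 98.1st percentile. Ranked among protein-coding genes with a gene-end peak, *Jun* was number 57 of 9498 in replicate 2 and number 1291 of 11792 in replicate 3. The peaks spanned 2782 bp and 3487 bp over the start site, and their summits lay 60 bp apart, at −104 and −44 bp from it. The region, chr4:95050519-95054005, also lay within 1 kb of an end of *Junos*, an antisense long noncoding RNA gene, and peaks do not tell strands apart. Weaker shared regions followed along the short gene body and past its 3′ end, with fold enrichments of 5.41 to 10.2 in replicate 2 and 6.21 to 14.3 in replicate 3. The gene body is only 3187 bp long, and 4 of the 5 shared regions at *Jun* counted as gene-end regions.

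*Junb*, an early response JUN gene on the minus strand of chromosome 8 (84976909 to 84978748), carried the widest gene-end region of the 10 genes. In replicate 3 it was a single peak of 4123 bp at 71.0-fold, and in replicate 2 it was divided among 3 peaks, of which the strongest, over the start site, was 34.6-fold. A neighbouring region of 2927 bp over the 3′ end reached 29.1-fold and 41.9-fold. That region also lay within 1 kb of an end of *Prdx2*, which encodes a peroxide-reducing enzyme, so it cannot be assigned to *Junb* by position. A distal region 6270 bp upstream of the start site, chr8:84985018-84986723, was almost as strong as the gene end, at 31.2-fold and 69.0-fold. Its summits in the 2 libraries were at 84985766 and 84985759. A weaker shared region downstream, 5.42-fold and 9.32-fold, lay at ends of *Rnaseh2a*, a subunit of the enzyme that cuts RNA paired with DNA, and *Prdx2*. The strongest of the distal regions found in replicate 3 alone at the 10 genes, 23.3-fold, also lay at *Junb*, 9894 bp past its 3′ end.

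*Jund*, the JUN gene known for steady rather than induced expression, lies on the plus strand of chromosome 8 (70697739 to 70700616). Its strongest peak was 31.1-fold in replicate 2 and 82.6-fold in replicate 3, the 95.0th and 97.4th percentiles. Unlike the other 6 genes with both a start site in the promoter table and a gene-end peak, its summits lay downstream of the annotated start, at 1069 and 1088 bp, inside the gene body. The summits of the libraries were 19 bp apart, the smallest gap of the 9 genes. The region, chr8:70698247-70700382, began 508 bp past the start site and so counted as a gene-end region, and it also lay near an end of *Iqcn*. A shared region over the 3′ end was weaker, at 7.46-fold and 15.5-fold. It also lay within 1 kb of an end of *Iqcn*, so position alone assigns neither of these regions to *Jund*.

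Among the FOS genes, *Fos* itself, which encodes c-Fos, had the weakest gene-end peak of the 9 genes by fold enrichment. It was 13.1-fold in replicate 2 and 28.9-fold in replicate 3, the 65.5th and 82.3rd percentiles. By −log10 p-value, *Fosl1* was below *Fos* in both libraries, at 29.0 against 32.2 in replicate 2 and 143.1 against 188.8 in replicate 3. The peaks covered the start site on the plus strand of chromosome 12 (gene body 85473890 to 85477274), with summits at −252 and −4 bp. A distal region 8342 bp past the 3′ end of the gene, chr12:85485616-85486476, was stronger than the gene end in both libraries, at 27.1-fold and 53.7-fold. Its summits were at 85486080 and 85486090. Upstream, another shared region, 1088 bp from the start site, reached 6.78-fold and 20.8-fold. Of the 9 genes, *Fos* alone had a shared distal region above its strongest gene-end peak in both libraries.

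*Fosb*, an immediate early FOS gene on the minus strand of chromosome 7 (19302696 to 19310118), had a gene-end peak of 24.4-fold in replicate 2 and 39.1-fold in replicate 3. Among protein-coding genes with a gene-end peak, this was at the 74.5th percentile in replicate 2. In replicate 3 it was near the middle, at the 50.5th percentile of those genes. *Fosb* had 5 shared distal regions, the most of the 10 genes. The strongest, chr7:19319702-19320418, lay 9657 bp upstream of the start site and reached 21.7-fold and 49.3-fold, which was above the gene-end peak in replicate 3 and below it in replicate 2. A region inside the gene body, chr7:19307547-19308971, reached 18.3-fold and 32.1-fold. A region 6554 bp downstream (8.81-fold and 29.5-fold) lay at an end of *Rtn2*, which encodes a protein of the endoplasmic reticulum membrane. Another (7.86-fold and 5.62-fold) lay at an end of the long noncoding RNA gene *Gm26802*.

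The FOS-like genes *Fosl1* and *Fosl2* encode FRA-1 and FRA-2, which lack the strong activation domain of c-Fos, and they differed in strength. *Fosl2*, on the plus strand of chromosome 5 (32136472 to 32157840), had gene-end peaks of 31.2-fold and 57.6-fold with summits at −646 and −697 bp from the start site. It had 3 shared distal regions, of which the strongest, chr5:32138164-32140030, lay in the gene body from 1692 bp past the start site, at 16.3-fold and 26.7-fold. These values belong to different peaks of the region, with summits at 32138595 in replicate 2 and 32139818 in replicate 3. Near the first summit replicate 3 had 21.3-fold, and near the second replicate 2 had 14.2-fold, so the libraries differed on which peak was stronger. *Fosl1*, on chromosome 19 (5447698 to 5455938), had gene-end peaks of 15.1-fold and 30.1-fold, and the strongest summits of the libraries lay 995 bp apart. Replicate 2 had 2 narrow peaks of similar strength, 15.1-fold and 13.5-fold, where replicate 3 had a single peak of 1839 bp. The summit of the weaker one, at 5448859, was close to that of replicate 3, at 5448851. Of 4 shared distal regions at *Fosl1*, 2 lay in the gene body, 1 at an end of *Ccdc85b* (8.81-fold and 17.7-fold), and 1 at an end of *Fibp* (8.54-fold and 10.8-fold). A further region in replicate 3 alone, 4.43-fold, lay at ends of *Fibp* and *Ctsw*, a protease gene of lymphocytes.

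*Atf3*, a stress-induced member of the ATF/CREB family, lies on the minus strand of chromosome 1 (191170296 to 191183333) and came next to *Jun* in both libraries. Its gene-end peak reached 41.3-fold in replicate 2 and 82.9-fold in replicate 3, the 98.8th and 97.4th percentiles, with summits at −186 and −141 bp from the start site. The window held 1 other shared region, 6.10-fold and 5.54-fold, 1477 bp inside the gene body. Replicate 3 had 9 further distal regions of its own there, which ranged from 3.84-fold to 7.38-fold. *Atf3* was the gene where the libraries differed most in the number of distal peaks, 1 against 10.

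*Batf* encodes a basic leucine zipper protein without an activation domain of its own, best known from lymphocytes. It lies on the plus strand of chromosome 12 (85686720 to 85709087), with its start 209.4 kb past the end of *Fos* and with *Jdp2*, another AP-1 partner gene, between them. *Jdp2*, named after its values were seen, had gene-end peaks of 24.4-fold and 56.0-fold. At *Batf*, no peak lay within 1 kb of either gene end. The only shared region was in the gene body, chr12:85705095-85705933, 18375 bp past the start site, at 7.93-fold in replicate 2 and 31.6-fold in replicate 3, the 35.7th and 84.0th percentiles. A single further peak, 7.67-fold in replicate 3 alone, lay 6591 bp upstream of the start site.

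*Egr1* lies on chromosome 18 (34861207 to 34864956) and had gene-end peaks of 28.5-fold in replicate 2 and 53.0-fold in replicate 3, the 93.5th and 92.3rd percentiles. The region over the lower-numbered end spanned 3191 bp in replicate 3, and 3 peaks of replicate 2 fell within it, with the strongest summits 165 bp apart. A region of 4.82-fold near the other end was found in replicate 3 alone. No region away from the gene ends was shared, and 4 were found in replicate 3 alone, at 4.01-fold to 7.97-fold. Of the 3 replicate 2 peaks in the wide region, 1 of 19.5-fold lay 1035 bp from the gene end. Its overlap with the wide replicate 3 peak placed it in the gene-end region, so it gave no distal region.

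The gene-end regions of these genes were wide. The longest shared gene-end region of a gene had a median of 1929 bp over the 9 genes and 1014 bp over all 9491 protein-coding genes with one, and all 9 exceeded that median, from 1023 bp at *Fosb* to 4123 bp at *Junb*. These regions join the peaks of both libraries and mostly follow replicate 3. Within a library, the strongest gene-end peak had a median width of 1168 bp over the 9 genes in replicate 2, against 473 bp over all protein-coding genes with such a peak, and of 1873 bp against 891 bp in replicate 3. All 9 were wider than that median in each library. Peaks of both libraries covered a median of 2060.5 bp of the window over the 10 genes, against 335 bp over all protein-coding genes. The medians were 1190.5 bp and 0 bp with a reciprocal overlap of at least 50%, and 5412.5 bp and 1096 bp for all peaks of replicate 3. Among genes with a shared gene-end peak, the medians were 2068 bp for the 9 and 844 bp for all 9491, and again 9 lay above the median. As a share of the window, the median was 8.04% over all 10 genes and 0.577% over all 21887 protein-coding genes. These genes are short, with a median window of 25586.5 bp against 37169 bp, which raises the share but not the length. By length, the 9 genes lay between the 92.5th percentile (*Atf3*, 1719 bp) and the 99.7th percentile (*Junb*, 5488 bp) of all protein-coding genes, and *Batf*, at 609 bp, lay at the 63.6th. Closest to *Junb* in covered length over the 2 libraries, as a Euclidean distance on the log2 scale, were *Zfp36*, an mRNA decay factor (0.02), *Bax*, a promoter of apoptosis (0.09), and *Rasgrp3*, a Ras activator (0.09). *Zfp36* had 5505 bp in replicate 2 and 9548 bp in replicate 3, where *Junb* had 5488 bp and 9684 bp.

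The strongest gene-end summits of the replicates lay 19 bp (*Jund*) to 995 bp (*Fosl1*) apart. The median gap was 60 bp, against 28 bp over all 9491 protein-coding genes with a shared gene-end peak. It was below 100 bp at 5 of the 9 genes (55.6%), against 88.2% of those genes. The wider gaps were at *Egr1*, *Fos*, *Fosb*, and *Fosl1* and ranged from 165 bp to the 995 bp of *Fosl1*, which rests on which of its similar replicate 2 peaks ranked first.

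The gene-end regions of the 10 genes were more often found in both libraries than their distal regions, as over all protein-coding genes. Merged into regions, gene-end peaks gave 14 regions with both libraries, 6 with replicate 3 alone, and 0 with replicate 2 alone. Distal peaks gave 20 regions with both, 33 with replicate 3 alone, and 0 with replicate 2 alone. Over all protein-coding genes, replicate 2 alone made up 0.117% of gene-end and 0.313% of distal regions. Regions with both libraries were 70% of gene-end and 37.7% of distal regions here, against 62.7% and 33.1% over the windows of all protein-coding genes. The 20 shared distal regions had a median of 7.66-fold in replicate 2 (4.09 to 31.2) and 13.9-fold in replicate 3 (4.42 to 69.0), and 8 of them lay in a gene body. The 33 found in replicate 3 alone had a median of 5.86-fold (3.41 to 23.3), at the 27.6th percentile of that list by median. Of the 20, 4 lay within 1 kb of an end of another protein-coding gene. When replicate 3 was limited in the same way, 13 distal regions were shared, 1 had replicate 3 alone, and 7 had replicate 2 alone. Shared distal regions were then 61.9% here and 67.3% over all protein-coding genes, and those with replicate 2 alone 33.3% and 10.6%, so the counts and the order of these shares depend on the lengths of the lists.

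Genes that partner or drive these factors were counted in the same way, beside the 43.4% of all protein-coding genes with a shared gene-end peak. Of 10 other genes of AP-1 and CREB/ATF partners, 8 had one, and *Batf2* and *Mafg*, named after their values were seen, had a peak in replicate 3 alone. The strongest in replicate 3 were *Crem*, a cAMP-responsive factor (44.1-fold and 134.8-fold), and *Atf2*, a JUN partner and MAP kinase substrate (46.7-fold and 118.9-fold). Both exceeded every one of the 10 genes above in replicate 3, and in replicate 2 both lay between *Atf3* and *Jun*. Of 5 EGR and NAB genes, 3 had a shared gene-end peak, led by *Egr3*, a relative of *Egr1* (22.4-fold and 69.4-fold), and *Nab1*, a corepressor of EGR factors (19.7-fold and 43.4-fold). *Egr2* and *Egr4* had no gene-end peak in either library.

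Of 16 MAP kinase genes, which act upstream of AP-1, 14 had a shared gene-end peak. *Map2k7*, a kinase that activates JNK, had 38.6-fold in replicate 2 and 115.6-fold in replicate 3, and *Mapk8*, which encodes JNK1, the kinase that phosphorylates c-Jun, had 38.6-fold and 102.5-fold. *Map3k1* had no gene-end peak but 5 shared distal regions, and *Map3k5*, named after its values were seen, had a 4.54-fold peak in replicate 3 alone. Of 6 genes for serum response factor and its cofactors, 5 had a shared gene-end peak. The strongest in replicate 3 were *Mrtfa*, an actin-regulated cofactor (26.6-fold and 92.9-fold), and *Elk4*, a ternary complex factor (18.3-fold and 30.9-fold). *Srf* itself, named after its values were seen, had a 6.03-fold gene-end peak in replicate 3 alone and 2 shared distal regions. The median percentile of the strongest gene-end peak was 88.7 in replicate 2 and 92.7 in replicate 3 for the AP-1 and CREB/ATF partners, 82.5 and 89.3 for the EGR and NAB genes, 82.6 and 95.3 for the MAP kinases, and 55.4 and 79.6 for serum response factor and its cofactors. The medians over all protein-coding genes with a gene-end peak were 75.0 and 87.6, and serum response factor and its cofactors were below them in both libraries.

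Promoter windows, 250 bases before to 50 after an annotated start site in the RefSeq table of build GRCm38.p6, were matched for 8 of the 10 genes. A peak of both libraries lay over the window of 6 of the 8, against 40.7% of 21263 windows of protein-coding genes. The windows of *Jund* and *Batf* had no peak in either library. They were also the poorest in G and C, 46.7% and 49.7%, where the other 6 ranged from 58.7% to 68.3%. Their ratios of observed to expected CpG were 0.184 and 0.487, where the median was 0.567 over all windows and 0.824 over those with a peak of both libraries.

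Both strands of the windows were searched for sites of these factors. The AP-1 site TGANTCA was in 0 of the 8 windows, and in 6.99% of all 21263. The CRE, TGACGTCA, was in 0 (2.23% of all), the EGR site GCGTGGGCG in 0 (0.828%), and the serum response element in 0 (1.52%). The NF-kB site was in 3, *Fosl2*, *Fosb*, and *Fos*, and in 9.25% of all windows. After the sequences had been seen, 2 further motifs were added. The CRE half-site TGACG, which the full CRE contains, was in 5 windows, in 23.6% of all, and in 37.4% of those with a peak of both libraries. The variant TGACATCA was in the *Jun* window, in 3.66% of all, and in 1.49% of those with a peak of both libraries. A match describes letters only, and no match says only that these letters are not in the window.

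The 250 bases before the start site are shown for 4 genes that span the range of the peaks. By fold enrichment, *Jun* (minus strand, chr4:95052223-95052472) and *Atf3* (minus strand, chr1:191183334-191183583) had the strongest gene-end peaks in both libraries, *Fos* (plus strand, chr12:85473640-85473889) the weakest, and *Batf* (plus strand, chr12:85686470-85686719) none. All 250 bases lay within a peak of both libraries for the first 3. The sequences are RefSeq, build GRCm38.p6, written 5′ to 3′ on the strand of the gene. Capitals mark the TGACATCA variant in *Jun*, the CRE half-site in *Atf3* (on the other strand, as CGTCA), *Fos*, and *Batf*, and the NF-kB site in *Fos* (on the other strand).
Jun: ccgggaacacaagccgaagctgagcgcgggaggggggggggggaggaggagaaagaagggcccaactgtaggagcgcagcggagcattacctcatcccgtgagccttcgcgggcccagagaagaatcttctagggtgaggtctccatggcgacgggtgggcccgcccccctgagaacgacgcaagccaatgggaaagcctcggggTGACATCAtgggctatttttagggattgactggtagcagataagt
Atf3: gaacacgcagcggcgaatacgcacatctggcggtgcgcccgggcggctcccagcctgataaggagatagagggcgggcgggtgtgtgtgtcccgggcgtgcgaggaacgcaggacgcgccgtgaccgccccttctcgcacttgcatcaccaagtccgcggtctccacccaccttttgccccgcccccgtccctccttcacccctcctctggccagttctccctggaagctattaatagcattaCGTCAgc
Fos: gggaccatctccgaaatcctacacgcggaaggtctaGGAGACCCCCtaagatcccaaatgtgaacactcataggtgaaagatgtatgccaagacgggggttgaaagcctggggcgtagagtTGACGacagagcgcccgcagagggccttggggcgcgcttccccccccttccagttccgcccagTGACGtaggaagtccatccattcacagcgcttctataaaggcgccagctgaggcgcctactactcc
Batf: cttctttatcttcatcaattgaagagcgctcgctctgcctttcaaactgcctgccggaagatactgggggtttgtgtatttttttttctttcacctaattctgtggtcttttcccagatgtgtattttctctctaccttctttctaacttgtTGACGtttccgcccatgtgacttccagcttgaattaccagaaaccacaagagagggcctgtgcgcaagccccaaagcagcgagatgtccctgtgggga

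In *Jun*, the variant lay at −45 to −38 from the start site, and the summits lay at −104 in replicate 2 and −44 in replicate 3. In *Fos*, half-sites lay at −129 to −125 and −66 to −62, between the summits of replicate 2 (−252) and replicate 3 (−4), and the NF-kB site lay at −214 to −205. In *Atf3*, the half-site lay at −7 to −3, and in *Batf* at −98 to −94, where neither library had a peak.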

How the data were processed

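H3K27ac ChIP-Seq peak lists of 2 LSEC libraries were used. Per the labels' processing notes, the submitters used cutadapt, BWA 0.7.17, Picard 1.67, MACS2 2.0.10, and bedtools 2.27.1, with build mm10 (GRCm38). Whether the inputs served as control is not given in the sources used here. The authors called peaks per library and deposited 1 list each. The deposited columns hold the fold enrichment (a ratio), the −log10 p-value, the −log10 q-value, a score rescaled from the latter, and the offset of the summit. No q-value exceeded 0.00907 (replicate 2) or 0.00981 (replicate 3). Fold enrichments are stepped, with 1049 distinct values in replicate 2 and 5457 in replicate 3, so ties occur.

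Gene bodies came from the RefSeq table of GRCm38.p6, which gives no strand or exons, and start sites and strands from its promoter table. Overlaps, percentiles, and motifs were computed with Python 3.11.15, numpy 2.4.6, and pandas 2.3.3, and figures with matplotlib 3.10.9. The overlap steps were tested on simulated data. With a single group of 2 libraries, no test between groups exists, and values are descriptions beside those of all protein-coding genes. The members and lists were chosen with earlier results of these data known. Named genes were the 10 members, genes with an end at a peak in their windows, the 2 with the highest gene-end fold enrichment in replicate 3 and the first 3 without a gene-end peak of each list, and the 3 most like *Junb* in covered length; 1 gene that this rule names is not reported here. Alternatives tried were q-values up to 1e-05, equal numbers of the strongest peaks (by −log10 p), a reciprocal overlap of at least 50%, gene-end windows of 2.5 kb, flanks of 5 and 50 kb, distal regions without ends of other genes, the 5′ end only, ranking by −log10 p, and each library alone.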

Additional observations from a re-analysis of the deposited data

How the results depend on the processing

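Of 51 values recomputed under the alternatives, 37 stayed within the limits set: counts within 1.5 times, medians by less than 1 SD between the libraries (1.09 percentile points, 2342 bp). For covered length that limit exceeds the main value, so staying within it says little. Shared gene-end peaks were found at 6 of the 10 genes with reciprocal overlap, at 7 of the 8 with a start site when only the 5′ end was used, and at 9 otherwise. Each library alone had a gene-end peak at 9.

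The counts of regions moved most. Gene-end regions with both libraries, 14 in the main analysis, were 8 with reciprocal overlap and 24 with a 2.5 kb window, and 20 to 22 when all gene-end peaks of a single library were counted. Shared distal regions, 20 in the main analysis, were 13 with the same number of strongest peaks, 9 with reciprocal overlap, 10 with a 2.5 kb window, 64 with a 50 kb flank, and 27 to 54 when all distal peaks of a single library were counted, shared or not. Distal regions with replicate 3 alone, 33 in the main analysis, were 1 with the same number of strongest peaks, 18 with a 2.5 kb window, and 77 with a 50 kb flank. Wider windows and flanks move these counts by construction. The median percentile in replicate 3, 93.5, was 84.4 with the same number of strongest peaks and 95.5 by −log10 p. The median covered length, 2060.5 bp, was 1190.5 bp with reciprocal overlap, 4398 bp with a 50 kb flank, and 2100 to 5412.5 bp in each library alone.

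The motifs added after the data were seen gave 5 promoters with the CRE half-site and 1 with the variant, where the full CRE gave 0. No paired analysis was possible because a single group was compared with no other. Depth is unknown, so a peak missing from replicate 2 is not shown to be absent there.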

Other observations

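In the list of stress-response genes, some of which encode factors of the same leucine zipper family, 20 of 20 had a shared gene-end peak, against 43.4% of all protein-coding genes. The strongest in replicate 3 were *Hspa5*, the main chaperone of the endoplasmic reticulum (37.8-fold in replicate 2 and 142.6-fold in replicate 3), and *Hspa8*, a constitutive cytosolic chaperone (48.1-fold and 142.0-fold). Both were above every AP-1 and stress-response factor gene of the report in replicate 3, and in replicate 2 only *Jun* was higher than *Hspa8*. The median percentile of the strongest gene-end peak was 89.9 in replicate 2 and 96.3 in replicate 3. Over all protein-coding genes with such a peak, the medians were 75.0 and 87.6.

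Of 22 other immediate early genes, 20 had a shared gene-end peak, against 43.4% of all protein-coding genes. The strongest in replicate 3 were *Klf6* (44.5-fold and 127.4-fold) and *Klf2* (44.7-fold and 113.3-fold), zinc finger factors, the latter known to be induced by laminar flow in endothelium. *Ptgs2*, which encodes the inducible cyclooxygenase, had no gene-end peak in either library. *Ccn2*, named after its values were seen, encodes a matricellular growth factor and had a 7.49-fold peak in replicate 3 alone. The median percentile of this list was 89.1 in replicate 2 and 94.2 in replicate 3. Over all protein-coding genes with a gene-end peak, the medians were 75.0 and 87.6.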
